A study of Homo sapiens with 6 samples.

Results

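The 7 genes described here encode the calponins CNN1, CNN2 and CNN3, the transgelins TAGLN and TAGLN2, caldesmon (CALD1) and smoothelin (SMTN), and were chosen by symbol from 19437 genes measured in a human cell line. Each symbol had 1 row in the deposited table, and all 7 passed the filter on low values that left 13640 genes for testing. SCC9 is an established line from an oral squamous cell carcinoma. In both groups the cells grew in medium with serum and hydrocortisone and were transduced 1 day after plating with an adenovirus at a multiplicity of infection of 25. The control virus carried green fluorescent protein (GFP) and the other TEADi, which the labels call a TEAD inhibitor protein, and cells were harvested after 48 h. Each group had 3 libraries of poly(A) RNA, lettered A, B and C, and an untransduced group was not analysed here.

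Calponins, transgelins, caldesmon and smoothelin bind actin filaments. Calponins and transgelins share the calponin homology fold and carry calponin-like motifs, repeated in calponins and single in transgelins, smoothelin carries a calponin homology domain of its own, and caldesmon binds actin, myosin, tropomyosin and calmodulin. In smooth muscle, calponin and caldesmon restrain the ATPase of actomyosin, and CNN1, TAGLN and SMTN serve there as markers of the contractile state. CNN2, CNN3, TAGLN2 and a shorter form of caldesmon also occur in many cells outside muscle, where they are found on stress fibres and cortical actin. CNN1 and TAGLN are well-known targets of serum response factor (SRF), which binds the CArG box, while TEAD proteins, the DNA-binding partners of YAP1 and TAZ, bind a short element also known from muscle promoters as MCAT.

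Promoter windows show where such letters lie next to the starts of these genes. The windows came from RefSeq on GRCh38.p14, cover 250 bases before and 50 after an annotated start, and matched 6 of 7 members (CNN1, CNN2, CNN3, TAGLN2, CALD1 and SMTN), with 15 windows in all. The calponin windows are printed in full because these 3 relatives fell by unequal amounts. Of SMTN, which moved in the other direction, 1 of 4 windows is printed, the only one with a CArG box. The CNN1 window lies at chr19:11538601-11538900 on the plus strand and the CNN2 window at chr19:1026358-1026657 on the plus strand. The 2 CNN3 windows lie at chr1:94927061-94927360 and chr1:94925720-94926019 on the minus strand, and the printed SMTN window at chr22:31084746-31085045 on the plus strand. Capitals mark a CArG box, or the TEAD core GGAATG on either strand, written CATTCC when it lies on the other one.
CNN1: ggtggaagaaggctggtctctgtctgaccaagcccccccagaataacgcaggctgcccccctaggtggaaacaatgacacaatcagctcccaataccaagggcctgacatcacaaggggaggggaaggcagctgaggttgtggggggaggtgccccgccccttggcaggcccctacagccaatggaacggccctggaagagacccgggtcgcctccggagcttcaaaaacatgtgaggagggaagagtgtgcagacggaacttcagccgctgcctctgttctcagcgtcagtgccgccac
CNN2: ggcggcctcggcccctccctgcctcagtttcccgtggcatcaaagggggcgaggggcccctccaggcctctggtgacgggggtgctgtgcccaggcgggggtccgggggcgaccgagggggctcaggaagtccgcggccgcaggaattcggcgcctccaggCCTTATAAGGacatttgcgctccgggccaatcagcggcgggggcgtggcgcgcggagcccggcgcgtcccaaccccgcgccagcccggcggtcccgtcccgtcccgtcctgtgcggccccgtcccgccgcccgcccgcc
CNN3 upstream start: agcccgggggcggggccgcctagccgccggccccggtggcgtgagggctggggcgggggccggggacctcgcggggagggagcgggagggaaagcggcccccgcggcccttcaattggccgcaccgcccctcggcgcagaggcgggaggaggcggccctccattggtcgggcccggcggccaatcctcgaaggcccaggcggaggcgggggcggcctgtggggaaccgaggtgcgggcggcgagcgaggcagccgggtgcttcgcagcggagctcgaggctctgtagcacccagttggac
CNN3 downstream start: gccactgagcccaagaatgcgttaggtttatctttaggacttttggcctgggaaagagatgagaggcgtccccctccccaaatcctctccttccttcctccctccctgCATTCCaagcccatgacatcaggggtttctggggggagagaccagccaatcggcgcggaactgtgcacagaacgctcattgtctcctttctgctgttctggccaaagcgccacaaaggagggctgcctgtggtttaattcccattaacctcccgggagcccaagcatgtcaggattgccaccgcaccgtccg
SMTN: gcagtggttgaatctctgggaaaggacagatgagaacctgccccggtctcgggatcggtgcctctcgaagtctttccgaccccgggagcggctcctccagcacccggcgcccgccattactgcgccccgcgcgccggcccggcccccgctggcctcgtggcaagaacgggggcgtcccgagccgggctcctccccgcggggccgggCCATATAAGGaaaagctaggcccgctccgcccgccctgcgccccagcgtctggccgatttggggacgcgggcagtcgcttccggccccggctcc

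The CNN1 window held neither element. CNN2 had a CArG box that begins 89 bases before the start, and the printed SMTN window had one 44 bases before. The downstream window of CNN3 had a TEAD core 142 bases before the start, and the upstream one had none. Among the windows not printed, 2 of CALD1 and another of SMTN held a TEAD core. In all, 4 of the 15 windows held a TEAD core and 2 a CArG box. Over 35116 RefSeq windows of the same length, 14.0% held a TEAD core and 1.29% a CArG box, so a TEAD core in such a window is common. Another motif, TGANTCA of the AP-1 factors, stood in 3 member windows, 2 of them of TAGLN2, and in 7.71% of all windows. Both strands were searched for each motif. These matches describe letters in short windows and carry no measurement of binding.

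Values are in CPM, reads relative to library size, after scaling by the authors with TMM factors. Values of a group are listed in the order A, B, C. Library totals lay between 827124 and 915558 CPM, and between 9589768 and 15380584 as multiples of the smallest value in the same library, the nearest these values come to a depth. Among known TEAD targets, ANKRD1 had 80.0 ± 4.38 CPM in GFP and 1.82 ± 0.102 in TEADi (mean ± SD with n = 3 in each group, as throughout), CYR61 was 6.24-fold lower and CTGF 1.61-fold lower. GFP library A stood apart by its mitochondrially encoded reads, which were 0.898% of its total against 2.84% and 3.20% in the other GFP libraries and 4.19% to 4.86% in TEADi. Of 10 epithelial markers KRT8 and KRT18 were clearly present, while the GFP values of KRT5 were 21.7, 17.2 and 0.414 CPM and its TEADi values at most 0.302. With fewer reads, KRT14 (3.57, 1.52 and 0.0690 CPM in GFP), KRT17 (4.29, 3.26 and 0.759), KRT19 (1.90, 1.21 and 0.138) and CDH1 (1.73, 1.21 and 0.276) were also lowest in GFP library C. KRT8 (228, 205 and 188) and KRT18 (82.1, 75.4 and 76.8) had no such split. In TEADi, KRT14 lay at 0.0719 to 0.121 CPM and KRT17 at 0.178 to 0.431. KRT19 lay there at 0.0603 to 0.173 CPM and CDH1 at 0.144 to 0.181. The 10 epithelial markers summed to between 271 and 350 CPM in GFP and between 164 and 175 in TEADi. The 8 measured fibroblast markers summed to between 545 and 708 in GFP and between 1205 and 1274 in TEADi. That rise was mostly DCN, with 54.5 ± 5.57 CPM in GFP and 675 ± 19.4 in TEADi. COL1A1, the largest fibroblast marker in GFP, fell from 379 ± 67.5 to 254 ± 19.7 CPM. By marker, 3 of 4 tested epithelial markers were lower, and 6 of 8 fibroblast markers were higher and 1 lower, while 35.3% of all genes tested were called lower and 25.5% higher. The fibroblast marker THY1 passed the filter on low values through its TEADi libraries alone, so its call in that direction carries no weight. The part of these differences in the results below was not tested. Bulk values cannot tell fewer cells of a type from less RNA per cell. The labels say only that transduction was in triplicate, so p-values reflect no more than how these libraries vary, possibly for technical reasons.

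With TEADi, 5 of the 7 genes fell, 1 rose and 1 missed the threshold. In mean CPM, TAGLN and CNN1 were each 10.9-fold lower and CNN3 5.24-fold lower. CNN1 had few reads in TEADi, and its fitted log2 fold change was -2.74 against -3.25 for TAGLN. CNN2 and TAGLN2 fell by far less, SMTN rose and CALD1 lay just under its GFP level without passing the test. The test was limma on log2(CPM + 1) with Benjamini-Hochberg (BH) adjustment over all 13640 genes, and a gene was called at an adjusted p under 0.05. Of all genes tested 35.3% were called lower and 25.5% higher, so single modest calls in either direction are common in these data. The members were chosen with earlier results of these data known, and no test sets their count against that background. The balance over all genes depended on the scaling, with 4817 lower and 3482 higher as reported, 4126 and 4196 with equal library totals, and 4117 and 4217 with median-ratio factors. A fitted fall of at least 2-fold was found for 3 members and for 2.89% of all genes tested. These 3 include CNN1, also 1 of the 5 that fell, which passed the filter through its GFP libraries, where it was high. The 3 TEADi values lay wholly on one side of the 3 GFP values for all 7 members, against 65.8% of all genes tested. The median fitted log2 fold change of the members was -0.65, and that of all genes tested was -0.07. Setting libraries to equal totals or using median-ratio factors raised all fold changes by a median of 0.08 on the log2 scale, and no member changed direction.

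**Figure D1:**
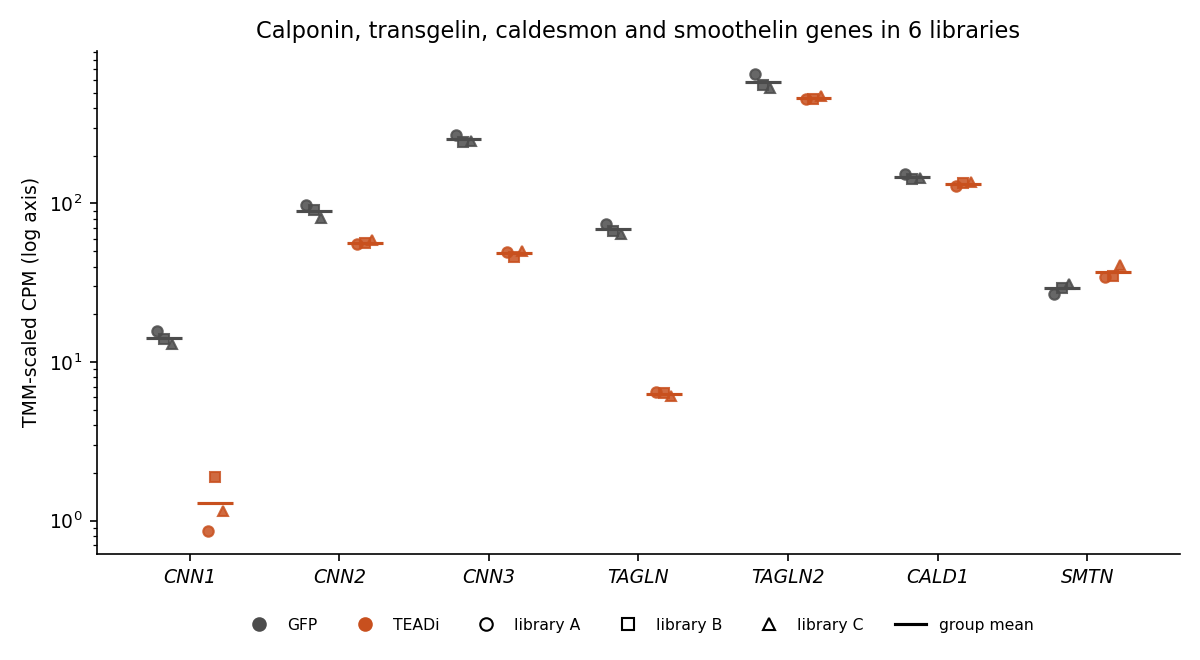
TMM-scaled CPM (log axis) of the 7 genes in 3 GFP and 3 TEADi libraries, with 1 point per library and a bar at the group mean. The groups do not overlap for any gene, with means 10.9-fold apart for CNN1 and TAGLN and close together for CALD1, where GFP lies between 143 and 154 CPM and TEADi between 128 and 137.

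CNN1, the calponin of differentiated smooth muscle, had the lowest CPM of the members, a ranking of reads that also depends on transcript length. The GFP libraries had 15.6, 14.0 and 12.9 CPM, and the TEADi libraries 0.863, 1.87 and 1.15. All TEADi values lay far under all GFP values, and TEADi library B was the highest of its group. Mean CPM was 10.9-fold lower in TEADi, and the fitted log2 fold change was -2.74 ± 0.16 (SE; limma BH-adjusted p = 2.2e-10). The gene lies on chromosome 19 in hg19, from 11649532 to 11661138 on the plus strand. The TEADi values are only 10, 26 and 19 times the smallest value of their library, so CNN1 in TEADi rests on few reads, and it passed the filter through its GFP libraries, with 2 of 3 TEADi libraries at 1 CPM or more. Its fitted fold change therefore depended on the pseudocount, being -3.41 with 0.1 and -1.61 with 5 in place of 1.

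CNN3, known as acidic calponin and found in many cell types outside smooth muscle, was the calponin with the most reads in GFP cells. CNN3 had 269, 245 and 248 CPM in the control libraries against 49.2, 46.0 and 50.4 with TEADi. The SD within a group was 5.16% of the mean in GFP and 4.77% in TEADi, and the groups were far apart. Mean CPM was 5.24-fold lower in TEADi (log2 fold change -2.37 ± 0.07; limma BH-adjusted p = 1.5e-14). CNN3 lies on chromosome 1 from 95362507 to 95392834 on the minus strand.

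CNN2, the calponin of cells such as keratinocytes and fibroblasts, fell by less. Its values were 97.9, 90.4 and 81.4 CPM with the control virus, and 55.2, 56.0 and 58.7 with TEADi. The TEADi libraries lay close together and under all GFP libraries. CNN2 was 1.59-fold lower (log2 fold change -0.65 ± 0.08; limma BH-adjusted p = 1.2e-06). It is on chromosome 19, from 1026298 to 1039068 on the plus strand.

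Because the 3 calponins fell unequally, their make-up changed. The summed calponin CPM went from 358 ± 21.5 to 106 ± 3.35. CNN3 gave 71.0% ± 1.30 of these reads in GFP and 45.6% ± 1.26 in TEADi, CNN2 25.1% ± 1.15 and 53.2% ± 0.766, and CNN1 3.94% ± 0.161 and 1.22% ± 0.515. These are shares of reads, which also depend on transcript length, so they are comparable between groups but not between genes. Within a library, CNN3 reads were 275%, 271% and 305% of CNN2 reads with the control virus and 89.2%, 82.0% and 85.9% in TEADi. On the log2(CPM + 1) scale the difference between CNN3 and CNN2 shifted by -1.71, and that between CNN1 and CNN2 by -2.09. A two-sided exact permutation test over the 6 libraries gave p = 0.1 for each, the smallest p that 3 against 3 libraries allow. It was not adjusted over the 3 pairs compared. Groups that do not overlap always give that p, and the pairs were chosen with the unequal falls known. The shift of CNN1 against CNN2 was -2.75 with a pseudocount of 0.1 and -0.99 with 5.

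**Figure D2:**
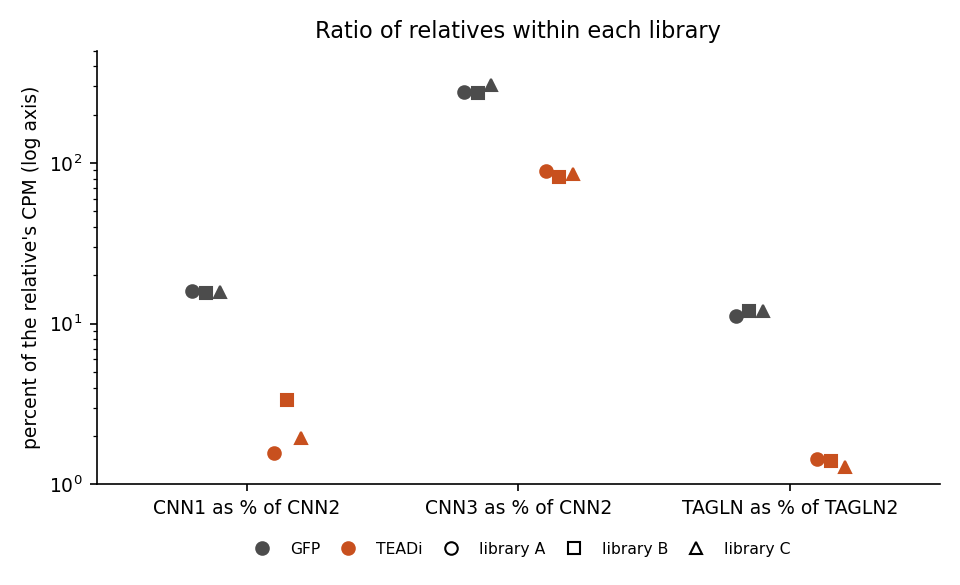
CPM of CNN1 and CNN3 as a percentage of CNN2, and of TAGLN as a percentage of TAGLN2, within each of the 6 libraries (log axis). All GFP points lie above all TEADi points in each pair, and CNN3 goes from more reads than CNN2 in GFP (271% to 305%) to fewer in TEADi (82.0% to 89.2%).

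TAGLN, also called SM22-alpha, cross-links actin filaments and is an early marker of smooth muscle and myofibroblasts. Its GFP values were 73.9, 67.1 and 64.5 CPM, and its TEADi values 6.47, 6.33 and 6.09. The SD of the TEADi libraries was 3.03% of their mean, and none comes near a GFP library. Mean CPM was 10.9-fold lower in TEADi (log2 fold change -3.25 ± 0.09; limma BH-adjusted p = 1.0e-14). This was the 10th lowest fold change of all genes tested on this scale, with CNN1 17th and CNN3 24th. TAGLN lies on chromosome 11 from 117070037 to 117075498 on the plus strand. Its last 446 bases (8.17% of the gene) overlap the end of PCSK7, a proprotein convertase gene on the opposite strand whose mean was 106 ± 6.62 CPM with the control virus and 95.4 ± 6.02 with TEADi. Use of strand in counting is not given in the sources used here, so in that stretch reads of TAGLN and PCSK7 cannot be told apart.

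TAGLN2, the transgelin of most other tissues, had the highest level of the family. TAGLN2 reached 659, 562 and 536 CPM with the control virus and 453, 453 and 474 with TEADi. The GFP libraries spread more widely, with library A on top, and all of them lay above the TEADi libraries. The gene was 1.27-fold lower (log2 fold change -0.34 ± 0.08; limma BH-adjusted p = 0.0012), a difference of 21.5% of the GFP mean. Without GFP library A the log2 fold change was -0.26, and it was -0.22 both with GFP library C as the only control and with quantile normalization, still called in each. TAGLN2 is on chromosome 1 from 159887897 to 159895522 on the minus strand. A processed pseudogene, TAGLN2P1, was listed at 0.289 to 1.04 CPM, and how reads that match both were assigned is not given in the sources used here.

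The transgelin pair thus also shifted. TAGLN reads were 11.2%, 11.9% and 12.1% of TAGLN2 reads with the control virus, and 1.43%, 1.40% and 1.29% in TEADi. The shift was -2.91 on the log2(CPM + 1) scale (two-sided exact permutation p = 0.1, the smallest possible, not adjusted over the 3 pairs). As for the calponins, groups that do not overlap always give that p, and the pair was chosen with the unequal falls known. The summed transgelin CPM went from 654 ± 69.6 to 466 ± 11.8, nearly all of it TAGLN2. The third transgelin, the neuronal gene TAGLN3, stood at 0.0595 to 0.138 CPM in all 6 libraries, at or close to the smallest value of each.

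CALD1, caldesmon, which on smooth muscle filaments blocks myosin and in other cells stabilises actin bundles, was not called. The level was 154, 143 and 145 CPM in GFP cells, and 128, 134 and 137 in TEADi cells. The highest TEADi library was only a few CPM under the lowest GFP library. The fitted log2 fold change was -0.15 ± 0.06, with a 95% interval from -0.28 to -0.01 before adjustment and an adjusted p of 0.058 (limma, Benjamini-Hochberg). In the authors' deposited table the ratio of CALD1 was 0.903 with an adjusted p of 0.0394, which is past the threshold. Over the alternatives tried, the adjusted p of limma or of the authors ranged from 0.0394 to 0.519, the highest with quantile normalization. CALD1 spans 134429003 to 134655479 on chromosome 7, plus strand, and a gene-level value does not separate its long smooth muscle form from its shorter form.

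SMTN, smoothelin, a protein of contractile smooth muscle filaments, was the only member that rose. SMTN had 27.0, 29.3 and 31.2 CPM in GFP cells but 34.5, 35.0 and 41.1 in TEADi cells. TEADi library C was the highest and GFP library A the lowest of all 6. Mean CPM was 1.26-fold higher (log2 fold change 0.32 ± 0.09; limma BH-adjusted p = 0.0048), and over the alternatives the adjusted p ranged from 0.0010 to 0.089. With GFP library C as the only control, a choice made after seeing that KRT5 was high in libraries A and B, SMTN was at 0.23 and not called (adjusted p = 0.089, limma, Benjamini-Hochberg). The gene lies on chromosome 22 from 31460091 to 31500743 on the plus strand. As with CALD1, isoforms from its several starts are summed in the value. The other smoothelin-like genes, SMTNL1 and SMTNL2, were not among the 19437 genes.

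**Figure D3:**
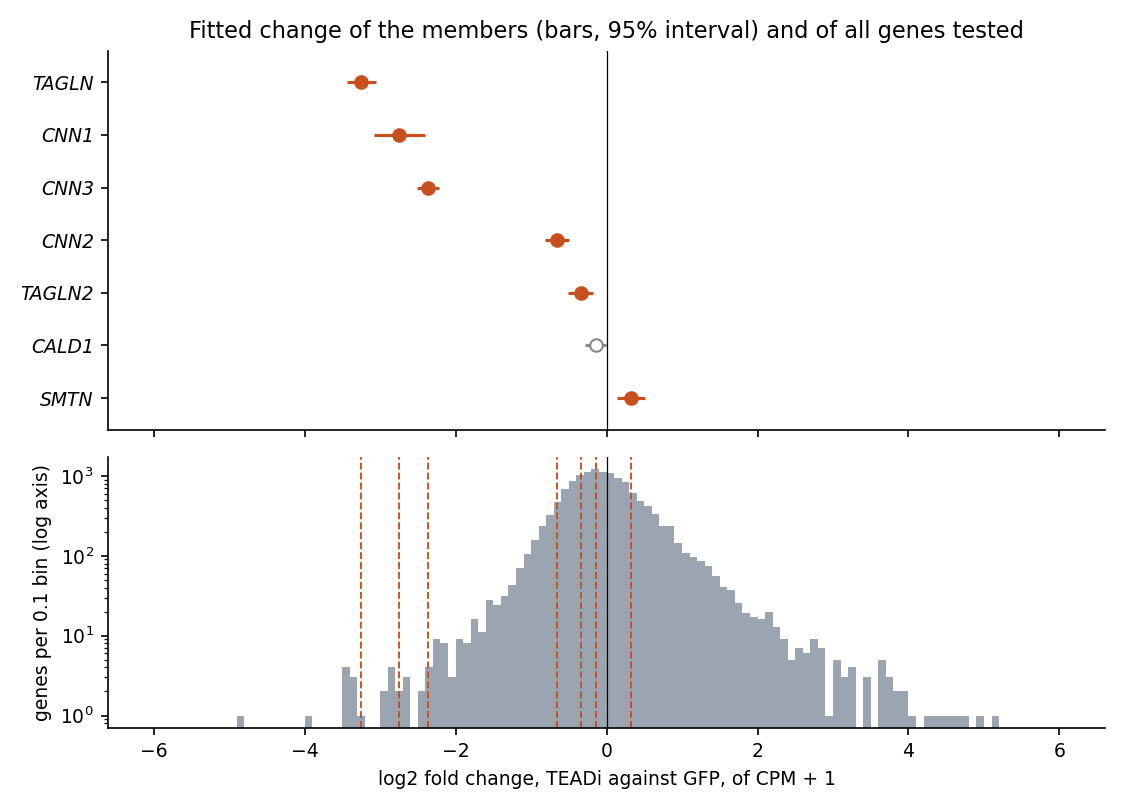
Top, fitted log2 fold change of each member (TEADi against GFP, CPM + 1) with its 95% interval, filled where called and open for CALD1. Bottom, the same quantity for all 13640 genes tested (genes per bin, log axis) with the members as dashed lines: TAGLN, CNN1 and CNN3 lie in the thin lower tail and the other 4 in the bulk.

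Per kilobase of transcript the order of the 7 genes changed between the groups. Levels were divided by the median length of GENCODE 29 basic coding transcripts, which is 1227 bases for TAGLN and 3212.5 for SMTN, the ends of the range. In GFP the order was TAGLN2 (365 ± 40.4 CPM per kb), CNN3 (129 ± 6.64), TAGLN (55.8 ± 3.96), CALD1 (55.3 ± 2.16), CNN2 (41.9 ± 3.85), SMTN (9.09 ± 0.657) and CNN1 (8.66 ± 0.833). TAGLN and CALD1 did not differ beyond their spread, nor did SMTN and CNN1. In TEADi the order was TAGLN2 (287 ± 7.47 CPM per kb), CALD1 (49.9 ± 1.65), CNN2 (26.4 ± 0.849), CNN3 (24.6 ± 1.17), SMTN (11.5 ± 1.15), TAGLN (5.13 ± 0.155) and CNN1 (0.792 ± 0.318). CNN2 and CNN3 then lay close together, while TAGLN had moved from the third to the sixth place. Which transcripts the cells use is unknown. With the longest and the shortest transcript the mean of TAGLN in GFP would be 31.6 and 73.8 CPM per kb and that of CALD1 34.4 and 77.0, so the middle of the order in GFP depends on this choice. TAGLN2 stood first in both groups with its longest transcript as well (365 and 287 CPM per kb).

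Within the GFP group, library A was the highest for 6 of 7 members and the lowest for SMTN. In the TEADi group, library C was the highest for 5 of 7 members and library A the lowest for 5 of 7. These orders were not counted over all genes, so they are not read as a trait of the members. Without GFP library A the 5 members called lower and SMTN were still called by limma. The log2 fold changes of CNN3 and TAGLN moved little over the 6 fits that left out 1 library each, from -2.39 to -2.32 and from -3.29 to -3.20. That of CNN1 lay between -2.92 and -2.61, that of CNN2 between -0.72 and -0.59, and that of SMTN between 0.24 and 0.37. CALD1 was called in none of the 6 fits, with an adjusted p from 0.072 to 0.19 (limma, Benjamini-Hochberg).

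**Figure D4:**
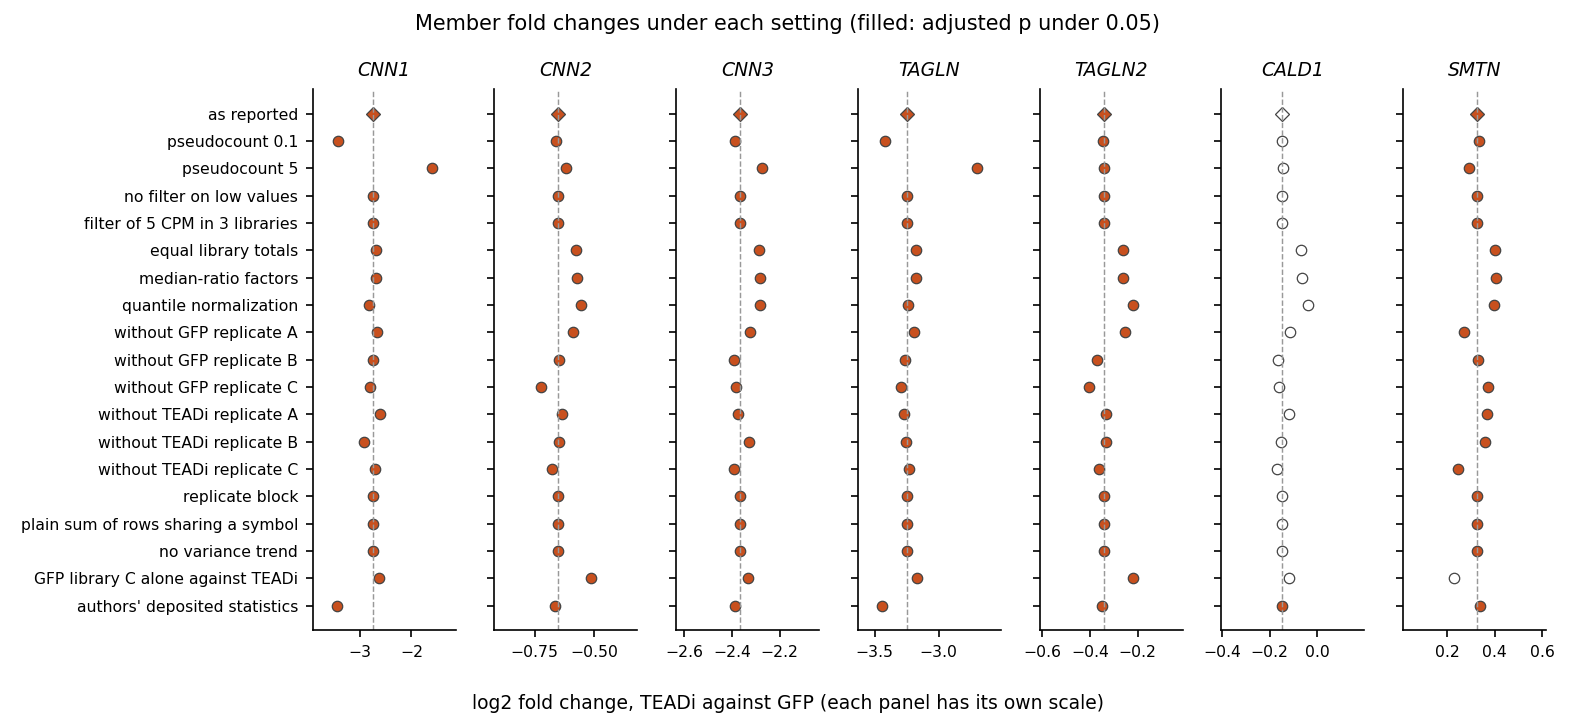
Log2 fold change of each member (own scale per panel) as reported (diamond) and under each alternative (circles), filled where the adjusted p was under 0.05. CNN1 and TAGLN move with the pseudocount, CALD1 is filled only with the authors' statistics, and SMTN is open only with GFP library C as the single control.

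Genes of the same filament system mostly fell, but by less than TAGLN, CNN1 and CNN3. Of 46 tested genes in 5 lists of actins, tropomyosins, myosin II with its regulators, SRF cofactors with cytoskeletal SRF targets, and actin cross-linkers, 29 fell, 8 rose and 9 were not called, beside 35.3% lower and 25.5% higher over all genes tested. Of these 46 genes, 6 were called lower with a fitted fall of at least 2-fold, beside 2.89% of all genes tested. Their median log2 fold change was -0.33, and that of all genes tested -0.07. The lists were chosen with earlier results of these data known. Among actins, ACTB went from 3765 ± 302 to 2217 ± 93.2 CPM and ACTG1 from 3285 ± 44.6 to 1997 ± 108, falls of 1.70-fold and 1.65-fold. The smooth muscle actin ACTA2 had 0.841 ± 0.204 CPM in GFP and 1.94 ± 0.307 in TEADi, but it overlaps FAS and STAMBPL1 on the opposite strand, which have more reads. It passed the filter on low values through its TEADi libraries alone and drops under it when any of them is left out. Its call, 1 of the 8 higher ones, therefore carries no weight. All 4 tropomyosins, the coiled-coil proteins that run along actin filaments, fell, with a median log2 fold change of -0.42. TPM1 was 1.70-fold lower and TPM2 1.51-fold, while TPM3 was 1.18-fold lower and TPM4 went from 376 ± 23.2 to 314 ± 1.64 CPM. With quantile normalization only 2 of the 4 were called.

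In the list of myosin II and its regulators 7 of 14 tested genes fell, 3 rose (2 to 5 over the alternatives) and 4 were not called, beside the same 35.3% and 25.5% over all genes. The list's median log2 fold change of -0.14 was close to the -0.07 of all genes tested. MYLK, the myosin light chain kinase, went from 220 ± 2.82 to 93.1 ± 1.93 CPM, the light chain MYL9 from 47.0 ± 2.65 to 23.9 ± 2.22 and the non-muscle heavy chain MYH9 from 1582 ± 87.6 to 982 ± 53.9, and MYL12B was 1.35-fold lower. The genes that rose were the light chain MYL12A (1.22-fold), the phosphatase subunit PPP1R12B (1.44-fold) and the smooth muscle heavy chain MYH11 (1.28-fold). MYH11 overlaps NDE1 on the opposite strand, which has about as many reads. Of 7 smooth muscle markers outside the members, 5 were measured, and ACTG2, LMOD1 and SYNPO2 were under 1 CPM in all 6 libraries. ACTG2 was at the smallest value in every one, and the summed level of the 5 lay between 16.8 and 18.3 CPM in GFP and between 22.0 and 24.0 in TEADi, most of it MYH11. The 2 tested markers, MYH11 and ACTA2, were called higher, beside 25.5% of all genes tested, though the ACTA2 call carries no weight.

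SRF itself, the transcription factor that binds CArG boxes, fell from 79.6 ± 3.19 to 37.4 ± 1.47 CPM. Of its cofactors MKL1 went from 31.7 ± 0.733 to 24.9 ± 1.34 CPM and was called lower (it overlaps SGSM3). MKL2 with 21.0 ± 1.86 CPM in GFP and 22.7 ± 3.93 in TEADi did not pass the test. MYOCD was not among the 19437 genes. In the list of SRF cofactors and targets 8 of 15 tested genes fell, 2 rose (1 to 3 over the alternatives) and 5 were not called, beside 35.3% lower and 25.5% higher over all genes. The median log2 fold change of this list was -0.33. TUFT1 was 2.94-fold lower and the LIM protein CSRP1 1.74-fold lower, while the LIM proteins PDLIM5 and FHL1 rose 1.57-fold and 1.27-fold. Among cross-linkers 8 of 10 fell and 2 rose, with a median log2 fold change of -0.59, beside the same shares of all genes. The falls were led by LIMA1 (3.64-fold lower), FLNC (756 ± 145 to 291 ± 18.5 CPM) and PALLD (2.31-fold lower), and the bundling protein FSCN1 (32.8 ± 6.30 to 120 ± 8.35 CPM) and the podocyte and dendritic protein SYNPO (2.07-fold higher) rose. FLNC spread widely between GFP libraries, from 597 CPM in A to 880 in C, and PALLD overlaps DDX60L.

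**Figure D5:**
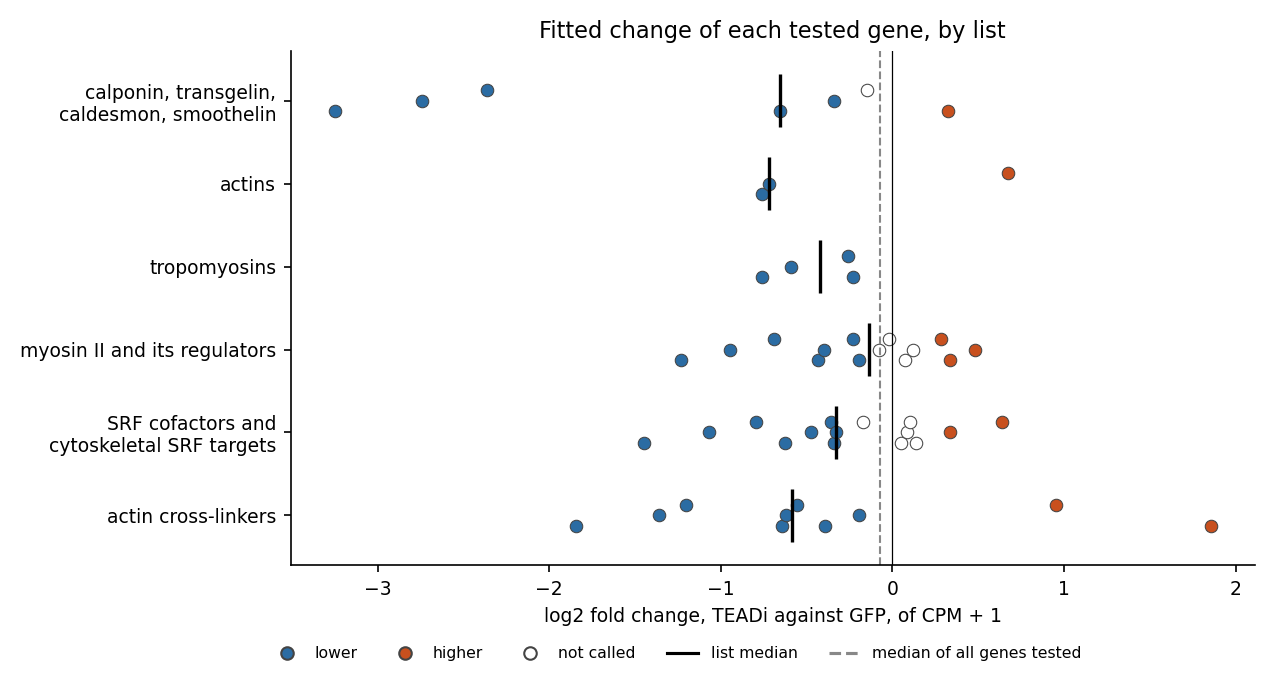
Fitted log2 fold change (TEADi against GFP, CPM + 1) of each tested gene, by list, with the list median as a black bar and the median of all genes tested (-0.07) as a dashed line. The members span from -3.25 to 0.32, and none of the 5 other lists has a gene below -1.84.

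Other genes had profiles over the 6 libraries close to those of single members, measured as the root mean square difference of log2(CPM + 1) after subtracting each gene's GFP mean, among 9248 or 9249 genes with a mean of at least 10 CPM. Nearest to CNN3 were AJUBA, a LIM protein at adhesions (213 ± 6.43 to 41.2 ± 1.89 CPM; distance 0.048), and FRMD6, a Hippo pathway scaffold (distance 0.085). Nearest to TAGLN were RP11-346D6.6 (distance 0.092) and ANXA3, an annexin (26.6 ± 2.96 to 1.76 ± 0.192 CPM; distance 0.104). CNN1 had no neighbour as near, the first being NREP (327 ± 6.17 to 52.7 ± 2.27 CPM; distance 0.213) and ZNF542 (0.217). The spread of the few CNN1 reads between TEADi libraries (0.863, 1.87 and 1.15 CPM) adds to these distances. For CNN2 the nearest were RDH14 and RP11-424C20.2 (0.021 and 0.022), and for TAGLN2 the ribosomal protein genes RPL15 and MRPS16 (0.020 and 0.023). CALD1 lay next to SNRNP27 and GNL1 (0.0076 and 0.010), and SMTN next to LZTR1 and STAT6 (0.023 and 0.037). Of these neighbours, ZNF542 overlaps ZSCAN5A, MRPS16 overlaps DNAJC9, SNRNP27 overlaps MXD1, and STAT6 overlaps NAB2 and LRP1. The mean of LRP1 was 26.3 CPM in GFP and 76.4 in TEADi. Short distances are easier to find for members with small changes, where most genes lie.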

How the data were processed

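Poly(A) RNA of 6 samples was made into libraries with a TruSeq kit, per the labels' protocols. Listed in the submitters' processing notes, without role or order, are hg19, STAR 2.5.1, Trimmomatic 0.36 and Partek 8.0.19.0819, and the quantifier, annotation and strand use are not given in the sources used here. The authors deposited CPM values scaled with TMM factors. The smallest value of a library, shared by 1831 to 2157 of its entries, was taken to stand for no reads. Only 82.9% to 84.6% of low values (up to 60 times that value) lay within 0.1 of a whole multiple of it, so reads were not recovered and no count test was run. The authors also deposited, per gene, a ratio of means, a signed fold and a p-value with its adjusted p, from a test not named in the file. Ends are the deposited stop minus 1, checked on mitochondrial genes.

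Where several rows had 1 symbol (421 symbols, no member), what each held in excess of the library minimum was added up, and the minimum was added back once, giving 19437 genes from 19921 rows. Genes reaching 1 CPM in 3 or more libraries entered limma 3.58.1 (R 4.3.3; eBayes with a variance trend) on log2(CPM + 1), with group as the only term and two-sided p-values adjusted by Benjamini-Hochberg. The fit was tested on simulated data. Paralog ratios used exact permutation tests (scipy 1.17.1). Named genes were the members, their family, up to 4 called genes of each list with the smallest p plus those against the majority, overlapping genes, the 2 nearest profiles of each member, and SRF with its cofactors. Members and lists were chosen with earlier results of these data known. Library letters recur in both groups but are not said to mark a shared culture, so they were not used as pairs. All 6 library columns were matched by name, with 0 left over. Alternatives were other pseudocounts, filters, scalings, row merging, variance models, leaving out libraries, a replicate block and the authors' statistics.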

Additional observations from a re-analysis of the deposited data

How the results depend on the processing

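Over 18 alternatives for each member, CNN1, CNN2, CNN3, TAGLN and TAGLN2 kept their direction and their call. Limma called 8299 genes as reported and from 6771 to 8364 under the alternatives, and the authors' statistics 8575. SMTN lost its call only with GFP library C as the single control, a choice made after seeing the data (log2 fold change 0.23), so that 0 members were then called higher. In that fit the lone GFP library is assumed to vary like the TEADi libraries. CALD1 gained a call only in the authors' statistics (-0.15). Leaving out each library in turn gave 5 members lower and 1 higher in all 6 fits. With the letters as a replicate block, 8232 genes and 6 members were called, and deviations of same-lettered libraries correlated at 0.08, -0.06 and -0.02 across genes. The 29 lower and 8 higher calls in the 5 other lists ranged from 24 to 29 and from 7 to 11. Low levels such as CNN1 in TEADi are limited by depth, which is itself known only approximately.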
